A study of Mus musculus with 34 samples.

Results

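The TGF-beta, activin and BMP ligands of the infarcted mouse heart are described here by 10 genes: the ligands Tgfb1, Tgfb2, Tgfb3, Inhba, Inhbb, Bmp2, Bmp4 and Bmp6 and the follistatin-like genes Fstl1 and Fstl3. These genes were chosen by name, with earlier results of these data known, so their counts beside shares of all genes are descriptive. All 10 were present among the 14552 genes of a first table of 10 RNA-seq libraries and among the 17406 genes of a second table of 24 libraries. The samples were left ventricles (LV) of CFW mice, an outbred strain, in which the left anterior descending artery was tied off for good to cause myocardial infarction (MI). For the first table, the paper took the ischemic area or a matching area of sham hearts. It does not describe the tissue of the second. The first table compared hearts that received no injection: 3 control hearts titled sham but labelled as not operated, 3 hearts 4 h post-MI and 4 hearts 24 h post-MI. The second table held 2 sham-operated, uninjected hearts labelled 4 h, and infarcted hearts injected with modified mRNA (modRNA) in the border zone of the infarct at ligation. Injected hearts carried either Luc modRNA, encoding luciferase and used as the control, or AC modRNA, which the labels name by this abbreviation alone. They were collected at 4 h (4 Luc, 4 AC), 24 h (3 Luc, 3 AC) and 48 h (4 Luc, 4 AC), and the series is titled for sphingolipid metabolism, cell death and inflammation after MI. No age or sex was given in the labels, and nothing beyond the sample names says that libraries came from separate mice, so p-values measure the spread between these libraries.

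Ligands of this superfamily are secreted dimers that bind pairs of type I and type II serine/threonine kinase receptors and act through Smad transcription factors. TGF-beta proteins and activins signal mainly through Smad2 and Smad3, and BMPs through Smad1, Smad5 and Smad9. TGF-beta is secreted in a latent form and is a known driver of fibroblast activation and matrix deposition in the healing infarct, whereas follistatin-like 3 binds and neutralizes activins.

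Expression is given in CPM, read counts relative to library size, which the authors scaled by the TMM method in the first table. The second table was normalized on its own and its values were taken to be on the same kind of scale, although its method is not given in the sources used here. Changes are log2 fold changes of CPM + 1 with their standard error, tested with limma over all genes that averaged 1 CPM or more, and called at a q value (Benjamini-Hochberg adjusted p) under 0.05. This scale understates the change of genes near 1 CPM, such as Inhba, Inhbb and Bmp2 in sham hearts. All 10 genes passed the filter in both tables. The comparisons of each table share its sham hearts, and those of AC with Luc share their Luc hearts with the comparisons over time. Reads from overlapping genes on the other strand may be counted with Tgfb2, Tgfb3, Inhba, Bmp4, Bmp6 and Fstl3, since use of strand in counting is not stated. Tgfb1, Inhbb, Bmp2 and Fstl1 overlap no other gene in GENCODE M21.

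In the deposited tables (mm10, the same assembly as GRCm38) the members lay apart from each other, and each value counts reads over the exons of a whole gene. Tgfb1 was at chr7:25687002-25705077 on the plus strand, Tgfb2 at chr1:186622792-186705989 on the minus strand and Tgfb3 at chr12:86056743-86079041 on the minus strand. Inhba was at chr13:16011851-16031609 on the plus strand and Inhbb at chr1:119415463-119422248 on the minus strand. Bmp2 was at chr2:133552159-133562896 and Bmp6 at chr13:38345716-38500314, both on the plus strand, and Bmp4 at chr14:46383525-46390669 on the minus strand. Fstl1 was at chr16:37777055-37836516 and Fstl3 at chr10:79777274-79782630, both on the plus strand.

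Since several members rose together at 24 h, their promoters are shown by the windows around a TATAAA match, the TATA box motif. RefSeq (GRCm38.p6) gave the 250 bases before to 50 bases after the start of 8 of the 10 genes. Tgfb3 and Bmp2 had no entry. The motif TATAAA, on either strand, was present in 3 of these 8 promoters, against 13.6% of 32851 promoters of the same length. Below are the 30 bases around each match, 5′ to 3′ on the strand of the gene, with the match in capitals (in Fstl3 it is read on the opposite strand).
Tgfb2 at chr1:186706003-186706032, minus strand, match from base -31: ttggggagcacaTATAAAactctgctccgg
Fstl3 at chr10:79777233-79777262, plus strand, match from base -29: ccgccctgggctTTTATAggccgaggcgtc
Inhba at chr13:16011748-16011777, plus strand, match from base -91: acaacttctaaaTATAAAtctctggcacat
The 5 letters ACGTG, a form of the core of the hypoxia response element, were present on either strand in 4 of 8 promoters (Tgfb2, Fstl3, Bmp4 and Bmp6), against 19.6% of all promoters. The other form, GCGTG, was not counted. In Tgfb2, Bmp4 and Bmp6 the matches on both strands overlapped in CACGTG, which is also the E-box motif. Of these genes, Bmp4 was not called and Bmp6 fell at 24 h post-MI, and the part of the motif in the changes was not tested. TGANTCA, the AP-1 motif (7.81% of all promoters), and TGACGTCA, the cyclic AMP response motif (1.79%), were in none of the 8 windows.

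Markers and libraries that bear on the results are given first. In the first table, the summed level of 8 cardiomyocyte markers was 43907 to 46743 CPM in sham hearts and 12891 to 23601 CPM at 24 h post-MI. Over the same groups, 8 neutrophil markers summed to 1.98 to 3.57 and 332 to 2047 CPM, and 8 monocyte and macrophage markers to 97.4 to 164 and 359 to 761 CPM. The 3 atrial markers in that table summed to 80.5 to 296 CPM in sham hearts and 1150 to 1822 CPM at 24 h post-MI. In the second table at 24 h, cardiomyocyte markers were higher, with 49847 to 61797 CPM in Luc hearts against 40522 to 47958 CPM in its sham hearts. There neutrophil markers summed to 51.8 to 106 against 3.24 to 22.1 CPM and atrial markers to 362 to 603 against 60.7 to 117 CPM. Fibroblast markers summed to 2420 to 3592 against 1390 to 1545 CPM and endothelial markers to 664 to 876 against 490 to 571 CPM. The epicardial and mesothelial sum and the lymphocyte sum were higher in Luc hearts too. None of these sums overlapped sham, whereas smooth muscle and pericyte, monocyte and macrophage, platelet and erythrocyte sums did. The part of these cells in the changes of the members and of other pathway genes was not tested. In bulk tissue, fewer cells of a type and less RNA per cell cannot be told apart. Nor do the atrial sums, which include Nppa, tell atrial tissue from expression in the ventricle. In the second table, Luc 48 h libraries 1 and 3 resembled each other more than libraries 2 and 4, and AC 24 h library C was closer to a Luc 48 h library than to its own group, so results that change without them are given both ways. Sham library 2 correlated slightly more with Luc 4 h library 2 (Pearson r = 0.974) than with sham library 1 (0.971). Neutrophil markers summed to 22.1 CPM in sham library 1 and 3.24 CPM in sham library 2. The titles of the sham and 4 h libraries and those of the 48 h libraries carry separate sets of numbers and the 24 h titles none, so times in the second table cannot be told apart from library preparation or run. In this table the 24 h titles alone carry the letters Br, which the titles do not explain.

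Per kilobase of exon, Fstl1 was the most abundant member in the sham hearts of the first table, with 17.2 ± 4.42 CPM per kb (SD, n = 3). Tgfb3 followed with 4.26 ± 0.185, Bmp6 with 3.68 ± 0.381 and Bmp4 with 2.54 ± 0.675 CPM per kb. Tgfb1 (2.11 ± 0.175) and Tgfb2 (1.67 ± 0.0341) lay below these, while Inhba, Bmp2 and Inhbb were lowest at 0.367 ± 0.0938, 0.354 ± 0.0459 and 0.306 ± 0.177, within each other's spread. At 24 h post-MI the order had changed: Fstl3 reached 24.6 ± 4.10 CPM per kb (n = 4), Tgfb2 10.8 ± 2.74 and Inhbb 10.2 ± 1.59, all above Tgfb3 with 5.45 ± 1.69 and Bmp6 with 2.37 ± 0.881.

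At 4 h post-MI, Inhbb, which encodes the beta B subunit of activin B, was the only member called against sham (1 of 10, where 2.37% of 12487 genes were called). Its level was 2.17, 0.887 and 0.845 CPM in sham hearts D, H and I and 6.54, 7.66 and 4.41 CPM in hearts C, D and E at 4 h. The 2 groups did not overlap, and Inhbb rose by 1.67 ± 0.24 on the log2 scale (q = 0.00341). Bmp4, a ligand of the BMP branch, had 4.74, 7.46 and 4.94 CPM in sham hearts and 9.89, 10.1 and 8.48 CPM at 4 h, without overlap, but its change of 0.67 ± 0.21 was not called (q = 0.150). These were the 2 members whose groups did not overlap upward at 4 h, as did 10.9% of all genes tested, while 0 members and 18.0% of genes did not overlap downward. With equal column totals, 48.8% of all calls at 4 h were higher, against 65.5% as reported, and Inhbb was still called.

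At 24 h post-MI, 7 of the 10 members were higher than in sham hearts and Bmp6 was lower, where 66.0% of all genes tested were called, 35.6% higher and 30.3% lower. The median log2 fold change of the members was 1.89, against 0.04 over all genes tested. On the log2 scale of CPM + 1, both beta subunits of the activins, Tgfb2 and Fstl3 carried the largest changes. By the ratio of mean CPM, Bmp2 rose 7.05-fold and Tgfb2 6.45-fold. In each of these genes, as in Tgfb1, the lowest infarcted heart stood above the highest sham heart. With Fstl1 these were 7 members above sham without overlap and 0 below, against 35.3% and 28.7% of all genes. The plot of levels by library shows the separation.

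**Figure D1:**
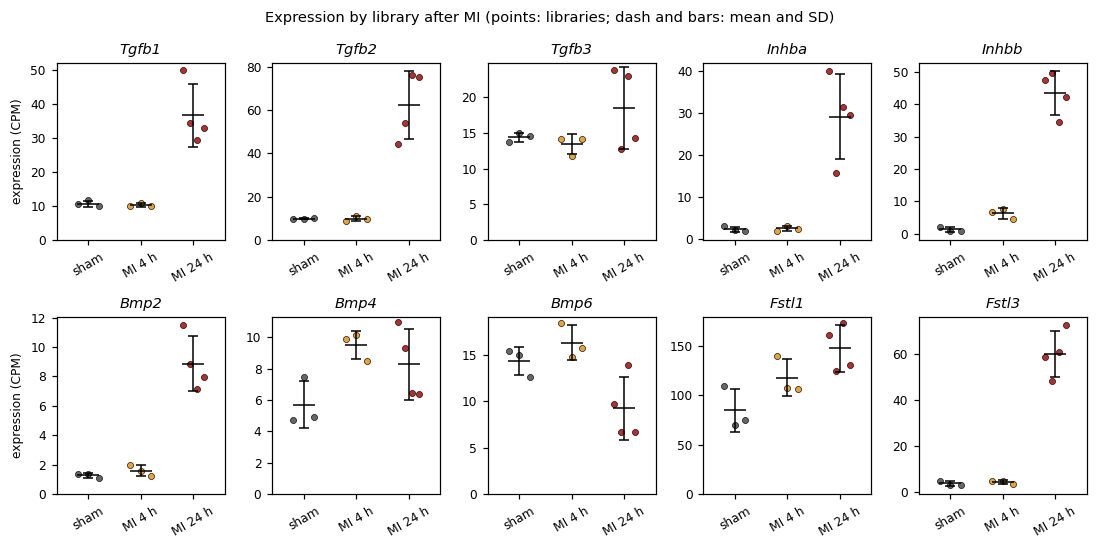
Expression in CPM (linear y axis, which differs between panels) of the 10 genes in each library of the first table, for 3 sham hearts, 3 hearts 4 h post-MI and 4 hearts 24 h post-MI. Points are libraries and the dash and bars give the mean and SD; Inhbb stood above all sham hearts at both times, and Tgfb1, Tgfb2, Inhba, Bmp2, Fstl1 and Fstl3 at 24 h.

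Tgfb1, the isoform produced by many cell types including leukocytes and platelets, had 10.6, 11.6 and 9.81 CPM in sham hearts D, H and I, 9.93, 11.0 and 9.83 CPM at 4 h, and 49.9, 34.2, 29.3 and 32.8 CPM in hearts C, D, G and H at 24 h. The 24 h hearts were all above the others, and heart C was highest. Tgfb1 rose by 1.66 ± 0.16 on the log2 scale at 24 h (q = 4.61e-06). For Tgfb2, levels in the same order were 9.55, 9.60 and 9.91 CPM in sham, 8.72, 11.1 and 9.72 CPM at 4 h, and 44.3, 54.2, 76.3 and 75.3 CPM at 24 h. Here hearts G and H were highest and C lowest, the reverse of the order in Tgfb1. The increase of Tgfb2 was 2.54 ± 0.17 on the log2 scale (q = 6.90e-07). Tgfb3, the third isoform, had 13.7, 14.9 and 14.6 CPM in sham hearts and 23.8, 12.8, 22.9 and 14.3 CPM at 24 h. Hearts C and G lay above sham and D and H within or below it, and its change of 0.29 ± 0.20 was not called (q = 0.212).

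The activin subunits rose most among the ligands. Inhba, the beta A subunit of activin A, had 3.04, 2.06 and 1.95 CPM in sham hearts, 2.03, 3.16 and 2.44 CPM at 4 h, and 40.0, 15.6, 31.5 and 29.5 CPM in hearts C, D, G and H at 24 h. Heart D was lowest and still above all of the sham and 4 h hearts, and the rise was 3.11 ± 0.26 on the log2 scale (q = 2.18e-06). Inhbb reached 47.5, 49.8, 34.6 and 42.2 CPM at 24 h, with the lowest value in heart G. The rise of Inhbb was 4.31 ± 0.22 against sham (q = 1.19e-07) and 2.64 ± 0.22 against the 4 h hearts (q = 3.07e-06). Inha, which pairs with a beta subunit to form inhibin instead of activin, was among the other genes of the superfamily and fell by 1.08 on the log2 scale at 24 h (q = 1.10e-05).

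Among the BMPs, Bmp2 rose and Bmp6 fell. Bmp2 had 1.37, 1.33 and 1.07 CPM in sham hearts and 11.5, 8.85, 7.17 and 7.99 CPM in hearts C, D, G and H at 24 h, a rise of 2.11 ± 0.16 on the log2 scale (q = 1.27e-06). For Bmp6, a ligand known for its part in iron regulation, sham hearts had 15.4, 15.0 and 12.6 CPM and 24 h hearts 9.72, 6.66, 13.9 and 6.62 CPM. Heart G lay within the sham range, so the groups overlapped. Bmp6 fell by 0.64 on the log2 scale (SE 0.21, q = 0.0195), a call that was lost without sham heart D (log2 fold change -0.59, q = 0.0635), sham heart H (-0.61, q = 0.0604), 24 h heart D (-0.52, q = 0.0521) or 24 h heart H (-0.52, q = 0.0545). Against the 4 h hearts Bmp6 was lower too (log2 fold change -0.81 ± 0.21, q = 0.00567). Bmp4 had 11.0, 9.32, 6.44 and 6.39 CPM at 24 h and overlapped sham (0.46 ± 0.20, q = 0.0574).

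The follistatin-like genes moved by different amounts. Fstl3 had 4.87, 3.01 and 2.99 CPM in sham hearts, 4.70, 4.88 and 3.43 CPM at 4 h, and 59.0, 48.2, 60.8 and 72.7 CPM in hearts C, D, G and H at 24 h, without overlap. The rise of Fstl3 was 3.74 ± 0.18 on the log2 scale (q = 7.91e-08), the second largest among the members after Inhbb. Fstl1, a secreted glycoprotein made largely by mesenchymal cells, had 109.6, 69.9 and 74.7 CPM in sham hearts and 161, 124, 174 and 131 CPM at 24 h. Every 24 h heart was above every sham heart, and Fstl1 rose by 0.81 ± 0.18 (q = 0.00179), while the summed fibroblast markers were lower at 24 h (729 to 1438 CPM) than in sham hearts (1621 to 2071 CPM). Their part in the result was not tested. Against the 4 h hearts, Fstl1 was not called (0.32 ± 0.18, q = 0.131), and 6 members were higher and Bmp6 lower, where 63.9% of genes were called, 37.2% higher and 26.7% lower. In number, 6 members lay above the 4 h hearts without overlap and 1 below, against 37.0% and 25.1% of all genes.

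For the 6 members that rose by at least 1 on the log2 scale at 24 h, the genes of at least 10 CPM with the nearest profile over the 10 libraries were found by the root mean square difference of log2(CPM + 1), each gene relative to its sham mean. These were Cap1 (0.12) and Arhgdia (0.14) for Tgfb1, Gm5105 (0.13) and Enah (0.19) for Tgfb2, and Sdf2l1 (0.22) and Ero1l (0.33) for Inhba. Hbegf (0.34) and Ch25h (0.36) were nearest to Inhbb, Cd68 (0.11) and Arpc1b (0.13) to Bmp2, and Rras2 (0.21) and Rtn4 (0.23) to Fstl3. Cd68 is a macrophage gene, and Hbegf encodes a growth factor that binds the EGF receptor. The CPM + 1 scale understates the changes of Inhba, Inhbb and Bmp2, so their nearest genes match that understated profile. Which cells carried these transcripts was not tested.

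The other genes of the pathway were described by 6 lists. At 24 h post-MI, 66.0% of all genes tested were called, 35.6% higher and 30.3% lower. Of 13 TGF-beta target genes tested, 8 were higher and none lower, a share called near that of all genes. Their median log2 fold change was 1.89. The higher targets included Timp1, an inhibitor of metalloproteinases (7.11 ± 0.26), the matrix protein Tnc (5.42 ± 0.27) and the collagen crosslinker Lox (4.83 ± 0.19). The collagens Col1a1 (-0.00 ± 0.31), Col1a2 (-0.46 ± 0.27) and Col3a1 (-0.30 ± 0.28) were not called. Col1a1 and Col1a2 are also among the fibroblast markers. Of 9 BMP target genes, 4 were higher and 1 lower, including Hamp (1.87 ± 0.18), the hepcidin gene, Id2 (1.81 ± 0.26) and Hey1 (-0.98 ± 0.25).

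Of 14 receptors, 3 were higher, 6 lower and 5 not called at 24 h, a share called near the 66.0% of all genes. The decreases were led by Hfe2, a BMP coreceptor of muscle (-2.03 ± 0.24), Rgma, another BMP coreceptor (-1.39 ± 0.22), the activin receptor Acvr2b (-1.18 ± 0.18) and the TGF-beta coreceptor Tgfbr3 (-1.11 ± 0.18). Smads and their regulators were higher in 9 of 16 and lower in 1, with Tgif1, a Smad corepressor, at 2.36 ± 0.19, Smad1 at 1.48 ± 0.13 and Smad9 at -1.15 ± 0.19. Of 20 genes of latency, activation and extracellular inhibition, 8 were higher and 6 lower, again near the share of all genes. Thbs1, thrombospondin 1, an activator of latent TGF-beta, rose by 5.17 ± 0.29 and Itgb6, a subunit of an activating integrin, had -2.66 ± 0.34. Fst, follistatin, the main soluble activin antagonist, rose by 1.86 ± 0.22, and among other ligands Gdf15 rose by 3.29 ± 0.33 while Bmp7 had -1.16 ± 0.12. Already at 4 h, Thbs1 (4.07 ± 0.32), the TGF-beta target Ctgf (2.49 ± 0.29) and the BMP target Id2 (1.85 ± 0.28) were higher, as were Lox (1.24 ± 0.20) and Smad1 (0.84 ± 0.14). In all, 3 TGF-beta targets, 1 BMP target, 1 Smad and 1 gene of latency were called at 4 h and none of the receptors or other ligands (limma). Of all genes tested, 2.37% were called at 4 h.

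In the second table the Luc hearts showed how the members behaved after MI with a control injection. Only Bmp2 was called at 4 h (1 of 10, where 1.55% of 12555 genes were called, 1.25% higher). It had 0.652 and 0.920 CPM in the sham hearts and 1.96, 2.32, 2.03 and 2.28 CPM in Luc hearts 1 to 4, without overlap, and rose by 0.82 ± 0.19 (q = 0.0224). This call was lost without sham heart 1 (log2 fold change 0.71, q = 0.367), Luc heart 2 (0.79, q = 0.0631) or Luc heart 4 (0.80, q = 0.0601). With equal column totals 70.2% of all calls were higher, against 80.9% as reported. Inhbb, called at 4 h in the first table, had 1.79 and 5.58 CPM in the sham hearts and 9.02, 5.79, 6.57 and 5.78 CPM at 4 h. These groups did not overlap, but the change of 0.84 ± 0.49 was not called (q = 0.455).

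At 24 h, 6 of the 10 members were higher in Luc hearts than in sham hearts and none lower, where 34.1% of genes were called, 25.3% higher and 8.79% lower. Inhbb had 48.8, 26.9 and 19.7 CPM in Luc hearts A, C and D and rose by 2.84 ± 0.51 (q = 0.000261), with 2.22 without sham heart 1 and 3.46 without sham heart 2. Fstl3 had 3.75 and 3.80 CPM in the sham hearts and 27.7, 21.2 and 28.2 CPM at 24 h, a rise of 2.47 ± 0.26 (q = 7.26e-07). In both genes every Luc heart was above both sham hearts. Bmp4 had 5.21 and 7.96 CPM in the sham hearts, 12.4, 9.37, 7.82 and 7.73 CPM at 4 h, and 16.9, 28.9 and 22.3 CPM at 24 h, where every Luc heart was above every sham and 4 h heart. It rose by 1.64 ± 0.38 against sham (q = 0.00235), a call that was lost without sham heart 1 (log2 fold change 1.37, q = 0.0635), and by 1.19 ± 0.32 against 4 h (q = 0.00689).

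Bmp2 at 24 h (3.46, 4.49 and 3.13 CPM) was called with 1.39 ± 0.20 and Fstl1 (131, 146 and 156 CPM) with 0.82 ± 0.20. Without sham heart 2 the Fstl1 call was lost (log2 fold change 0.67, q = 0.0517). Tgfb2, with 9.03 and 10.8 CPM in the sham hearts and 26.0, 17.8 and 16.6 CPM in Luc hearts A, C and D, rose by 0.93 ± 0.31 (q = 0.0229). This rise was not called without sham heart 1 (0.81, q = 0.174) or Luc heart A (0.74, q = 0.0954), under median-ratio rescaling (0.75, q = 0.0649) or with equal column totals (0.64, q = 0.110). Tgfb1 (18.4, 8.76 and 13.1 CPM against 7.27 and 9.52 CPM) and Inhba (3.57, 1.61 and 1.96 CPM against 1.01 and 1.08 CPM) were not called at 24 h (q = 0.0577 and q = 0.101). Bmp6 had 23.6, 16.9 and 25.9 CPM against 16.5 and 17.7 CPM in sham and was not called (q = 0.124).

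Between 4 and 24 h in Luc hearts, 6 members were higher and Tgfb3 lower, where 32.3% of genes were called, 24.5% higher and 7.80% lower. Inhbb (2.00 ± 0.43), Fstl3 (1.87 ± 0.22), Bmp4 and Tgfb2 (0.996 ± 0.26) carried the largest changes. The smaller rises of Bmp2 (0.57 ± 0.17, q = 0.0119) and Fstl1 (0.45 ± 0.17, q = 0.0457) and the decrease of Tgfb3 (-0.54 ± 0.18, q = 0.0275) were each lost in some alternatives. Bmp2 was not called without Luc 24 h heart C (0.45, q = 0.0758), under median-ratio rescaling (0.44, q = 0.0540) or with equal column totals (0.40, q = 0.0883). Fstl1 was not called under the same rescalings either (0.28, q = 0.185, and 0.23, q = 0.339). Tgfb3 was not called without Luc 24 h heart A (-0.38, q = 0.169) or Luc 4 h hearts 2 (-0.52, q = 0.0600) or 4 (-0.46, q = 0.0832), and Fstl1 without any of 6 libraries. Of all calls, 75.9% were higher as reported, 52.1% under median-ratio rescaling and 48.2% with equal column totals.

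Beside the rise of Bmp4 stood the BMP target genes, 8 of 9 of which were higher and Hey1 lower (-1.07) in Luc hearts at 24 h, with a median log2 fold change of 1.43 against 0.16 over all genes. Of all genes tested, 34.1% were called, 25.3% higher and 8.79% lower. Id3, an inhibitor of differentiation and direct BMP target, had 8.38 to 13.4 CPM in the sham hearts and 40.2 to 58.5 CPM at 24 h (2.17 ± 0.28), Hamp changed by 2.73 ± 0.53, Smad7 by 1.59 ± 0.28 and Id2 by 1.52 ± 0.38. Smad6 and Smad7, the inhibitory Smads, are in the Smad list too. In that list 7 of 16 were higher and none lower, among them Smad1 (1.79 ± 0.34), Smad6 (1.43 ± 0.31) and Tgif1 (1.35 ± 0.29). Of 14 receptors, 5 were higher and none lower, a share called near that of all genes. They were the TGF-beta receptor Tgfbr2 (1.51 ± 0.22), the activin receptor Acvr1b (1.502 ± 0.31), Eng, an endothelial coreceptor (1.06 ± 0.20), Acvrl1 (0.66 ± 0.19) and Tgfbr3. TGF-beta targets were higher in 7 of 13, with Lox at 3.04 ± 0.32, Timp1 at 2.95 ± 0.50 and Tnc at 2.50 ± 0.68. Genes of latency and inhibition were higher in 14 of 20 and lower in 1, including Thbs1 (2.85 ± 0.45), Ltbp2 (1.80 ± 0.28), Fst (1.74 ± 0.41) and Itgb6 (-2.64 ± 0.56), and other ligands in 2 of 5 (Gdf15, 1.33 ± 0.32, and Inha, 1.24 ± 0.21) with Gdf11 lower (-0.84 ± 0.23). Under median-ratio rescaling the median over all genes moved from 0.16 to -0.01, and the share of all calls that were higher from 74.2% to 53.4% (42.5% with equal column totals). The members called were then 5 higher and 1 lower, or 4 higher and 1 lower with equal column totals, where Fstl1 was not called (0.51, q = 0.0674).

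By 48 h the members of the Luc hearts had separated. Compared with 24 h, Tgfb3 and Inhba were higher and Bmp2, Bmp4 and Bmp6 lower, where 41.9% of genes were called, 9.32% higher and 32.6% lower. Bmp4 had 5.88, 3.24, 7.92 and 5.34 CPM in Luc 48 h hearts 1 to 4, all below the 24 h hearts, and its log2 fold change was -1.86 ± 0.32 (q = 0.000151). Bmp6 had 10.5, 9.70, 11.4 and 10.3 CPM, below all 24 h hearts and both sham hearts, with -0.99 ± 0.14 against 24 h (q = 2.34e-05) and -0.66 ± 0.16 against sham (q = 0.00327). Bmp2 (2.08, 1.78, 1.56 and 1.69 CPM) had -0.75 ± 0.17 against 24 h (q = 0.00128). The BMP targets Hamp (-1.89 ± 0.44), Atoh8 (-1.28 ± 0.21), Id3 (-1.23 ± 0.23) and Smad6 were lower too and Hey1 (1.10 ± 0.31) higher, 4 of 9 lower in all. Inhba, with 5.91, 4.76, 5.74 and 6.89 CPM, rose by 1.05 ± 0.27 (q = 0.00369) and lay above every 24 h heart. For Tgfb3 (21.6, 13.8, 11.0 and 18.1 CPM at 48 h against 8.13, 11.0 and 12.3 CPM at 24 h) the rise of 0.56 ± 0.18 was called (q = 0.0176) although the groups overlapped, and was lost without Luc 24 h heart A (0.40, q = 0.113) or Luc 48 h heart 1 (0.41, q = 0.0668). Between these 2 times, rescaling turned the balance of all calls: 22.3% of them were higher as reported, 49.7% under median-ratio rescaling and 77.5% with equal column totals. With equal column totals 5 members were called higher and 2 lower, against 2 and 3 as reported, and Bmp2 was not called (-0.41, q = 0.0712), while no member called as reported changed direction.

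**Figure D2:**
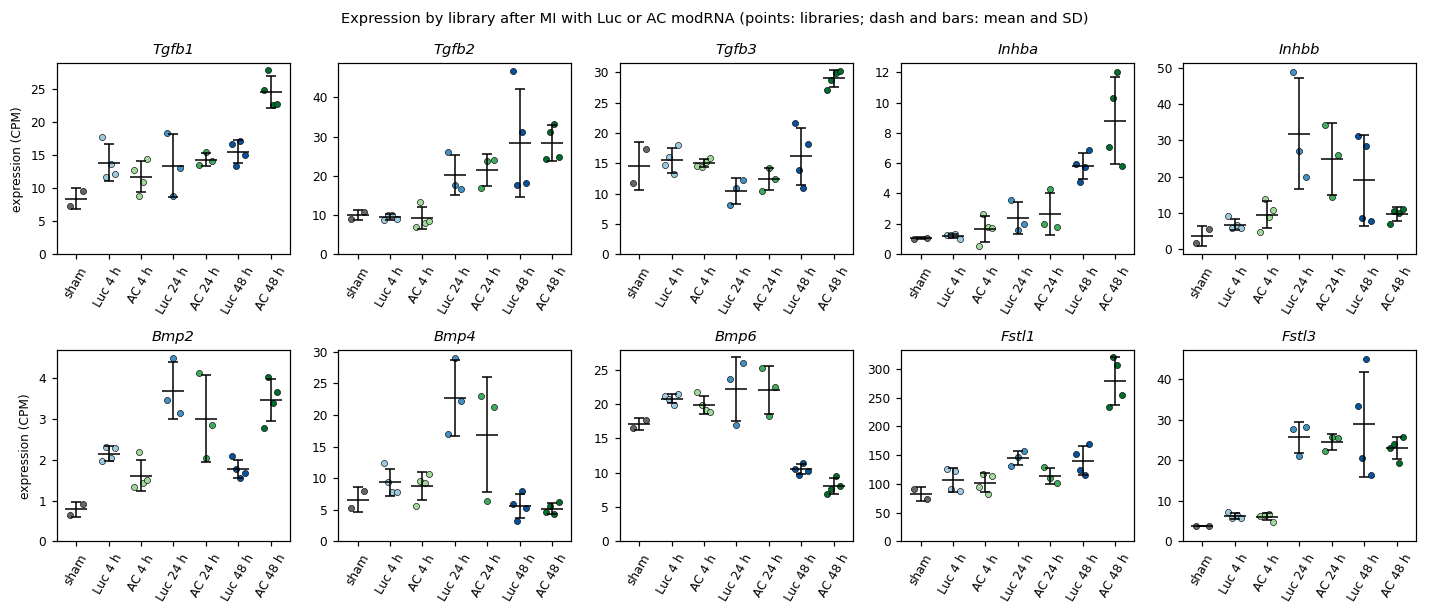
Expression in CPM (y axis) of the 10 genes in each library of the second table, for 2 sham hearts and for Luc and AC hearts at 4, 24 and 48 h. Points are libraries and the dash and bars give the mean and SD; Bmp4 was high at 24 h in all but AC heart C, and Tgfb1, Tgfb3, Bmp2 and Fstl1 were higher in all AC hearts than in all Luc hearts at 48 h.

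Against sham, 7 members were higher in Luc hearts at 48 h and Bmp6 lower, where 30.1% of genes were called, 13.7% higher and 16.4% lower. Inhbb had 31.1, 8.53, 28.4 and 7.83 CPM in hearts 1 to 4, Tgfb2 46.7, 17.5, 31.1 and 18.1 CPM, and Fstl3 33.5, 20.5, 45.2 and 16.5 CPM. Hearts 1 and 3 were high and hearts 2 and 4 low in all 3 genes. Compared with sham, neutrophil (144 to 519 CPM) and atrial markers (533 to 1169 CPM) of the Luc 48 h hearts were higher. Platelet (15.0 to 33.1 against 7.57 to 11.1 CPM) and monocyte and macrophage markers (199 to 277 against 131 to 185 CPM) were higher too. Cardiomyocyte (27506 to 37986 CPM) and smooth muscle and pericyte markers (317 to 409 against 544 to 696 CPM) were lower. None of these sums overlapped sham. In hearts 1 to 4, epicardial and mesothelial markers summed to 19.1, 4.35, 11.7 and 3.68 CPM and cardiomyocyte markers to 37986, 27506, 32091 and 28484 CPM. Of 6 epicardial and mesothelial markers, Upk3b, Msln, Upk1b and Lrrn4 were each at 0 in at least 1 of these libraries. The part of these cells in the result was not tested.

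The changes from sham at 48 h were 1.97 ± 0.49 for Inhbb, 1.32 ± 0.29 for Tgfb2, 2.54 ± 0.25 for Fstl3, 1.73 ± 0.30 for Inhba, 0.82 ± 0.22 for Tgfb1, 0.76 ± 0.19 for Fstl1 and 0.64 ± 0.19 for Bmp2. Without Luc 48 h hearts 1 and 3, a setting chosen after seeing the data, Inhbb (1.10, q = 0.0860) and Tgfb1 (0.70, q = 0.0581) were not called, while Fstl3 (2.02), Tgfb2 (0.79) and Inhba (1.72) were. Without sham heart 1, the calls of Tgfb1 (0.65, q = 0.119), Inhbb (1.35, q = 0.134) and Bmp2 (0.53, q = 0.143) were lost, and without sham heart 2 that of Fstl1 (0.61, q = 0.0773), while Inhbb had 2.59. Of all genes tested, 30.1% were called at 48 h, 13.7% higher and 16.4% lower. TGF-beta target genes were higher in 9 of 13 and lower in 1 at 48 h, including Timp1 (4.95 ± 0.47), Lox (4.58 ± 0.30) and Tnc (4.50 ± 0.64). Among receptors 2 of 14 were higher (Tgfbr1, 0.73 ± 0.23, and Tgfbr2, 0.61 ± 0.21) and Hfe2 lower (-1.42 ± 0.25). BMP targets were higher in 3 of 9 with none lower, and Smads in 4 of 16 with 2 lower, shares called near that of all genes. With equal column totals the share of all calls that were higher moved from 45.4% to 66.1%.

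**Figure D3:**
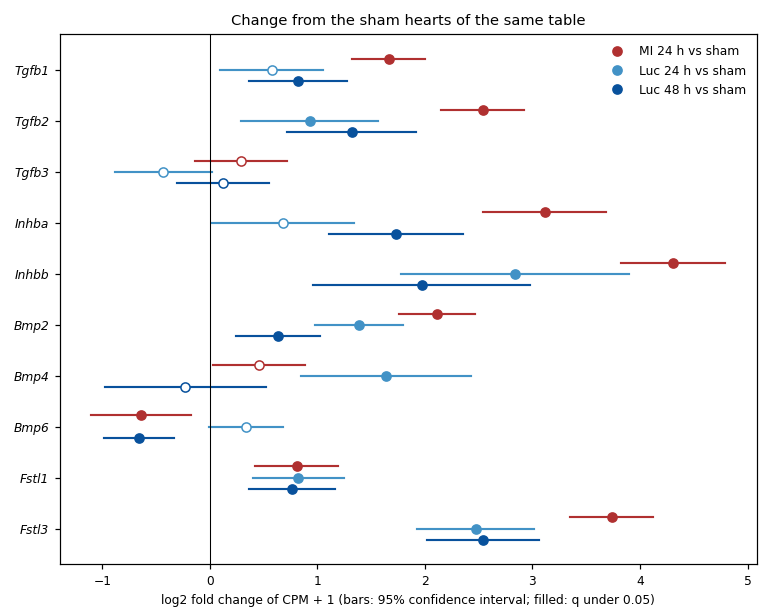
Log2 fold change of CPM + 1 against the sham hearts of the same table (x axis) for each gene (y axis), at 24 h post-MI without injection, and at 24 h and 48 h with Luc modRNA. Bars are 95% confidence intervals and filled points passed q under 0.05; Inhbb and Fstl3 were far above 0 in all 3 comparisons, Bmp4 was called in Luc hearts at 24 h alone, and Bmp6 was lower in the other 2.

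The tables were normalized separately, so the difference between 24 h without injection and 24 h with Luc modRNA was not tested, and the values stand side by side. Inhba had a log2 fold change of 3.11 without injection and 0.68 with Luc modRNA, Tgfb2 2.54 and 0.93, Tgfb1 1.66 and 0.57, and Fstl1 0.81 and 0.82. Bmp4 had 0.46 and 1.64, and Bmp6 -0.64 and 0.33. The controls also differed, being labelled as not operated in the first table and sham-operated in the second. Injection, controls, table and the marker levels given above differed together between these groups and cannot be told apart.

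The comparison of AC with Luc modRNA at each time asked whether the AC message changed the members. At 4 h and at 24 h none of the 10 was called by limma, and none had an unadjusted p under 0.05 (at 4 h 131 and at 24 h 599 of 12555 genes did), where 0.00796% of genes (1 gene) were called at each time. At 4 h the intervals of the 10 differences all lay between -0.71 and 1.20 on the log2 scale, with Inhbb the widest (95% interval -0.45 to 1.20). For Fstl1 the interval was -0.38 to 0.28 at 4 h and -0.73 to 0.03 at 24 h. At 24 h it had 131, 146 and 156 CPM in the Luc hearts and 129, 110.2 and 101 CPM in the AC hearts, all below the Luc hearts, the only member without overlap (6.92% of all genes lay below). At 24 h, Bmp4 had 16.9, 28.9 and 22.3 CPM in the Luc hearts and 22.996, 6.39 and 21.3 CPM in AC hearts A, C and D (-0.55, interval -1.26 to 0.15). Inhbb had 34.1, 14.3 and 25.9 CPM in these AC hearts. AC heart C was lowest in both genes, and its neutrophil markers summed to 338 CPM against 56.3 and 95.3 CPM in hearts A and D. A link between these values was not tested.

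At 48 h, 4 of the 10 members were higher in AC hearts than in Luc hearts and none lower, where 15.3% of genes were called, 12.1% higher and 3.27% lower. The median of the 10 was 0.29 against 0.14 over all genes. Fstl1 had 152, 125, 115 and 170.1 CPM in Luc hearts 1 to 4 and 233, 319.7, 307 and 255 CPM in AC hearts 1, 2, 4 and 5. Tgfb3 had 21.6, 13.8, 11.0 and 18.1 CPM in Luc hearts and 27.1, 28.8, 29.97 and 30.2 CPM in AC hearts. In both genes every AC heart was above every Luc heart, and the differences were 0.99 ± 0.16 for Fstl1 (q = 0.000283) and 0.85 ± 0.17 for Tgfb3 (q = 0.00189).

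Bmp2 (2.08, 1.78, 1.56 and 1.69 CPM in Luc hearts, 2.79, 4.02, 3.39 and 3.66 CPM in AC hearts) was higher by 0.68 ± 0.15 (q = 0.00520). Tgfb1 had 16.6, 13.3, 17.2 and 15.0 CPM in Luc hearts and 24.9, 27.9, 22.6 and 22.8 CPM in AC hearts, again without overlap, and was higher by 0.63 ± 0.18 (q = 0.0209). The Tgfb1 call was lost without Luc heart 2 (log2 fold change 0.56, q = 0.0523), without AC heart 2 (0.57, q = 0.0732) and without Luc hearts 1 and 3 together (0.75, q = 0.0737). Without these last 2 hearts, Tgfb3 (0.83, q = 0.0134), Bmp2 (0.70, q = 0.0491) and Fstl1 (0.92, q = 0.0131) were still called. Bmp6 had 6.91, 7.64, 9.57 and 8.07 CPM in AC hearts, all below the Luc hearts, but was not called (-0.35 ± 0.13, q = 0.0680). Inhbb had 6.85, 10.4, 10.0 and 11.1 CPM in AC hearts, where AC heart 1 was below all Luc hearts and the others within their range, and was not called (-0.68 ± 0.40, q = 0.254). Under median-ratio rescaling the share of all calls that were higher moved from 78.7% to 52.2%, and 5 members were called, 4 higher and 1 lower. At 48 h 4 members lay above the Luc hearts without overlap and 1 below, against 15.5% and 3.58% of all genes. In a fit of only these groups with a block for the replicate number, none of the 4 calls was kept. Whether the replicate numbers pair hearts could not be decided.

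**Figure D4:**
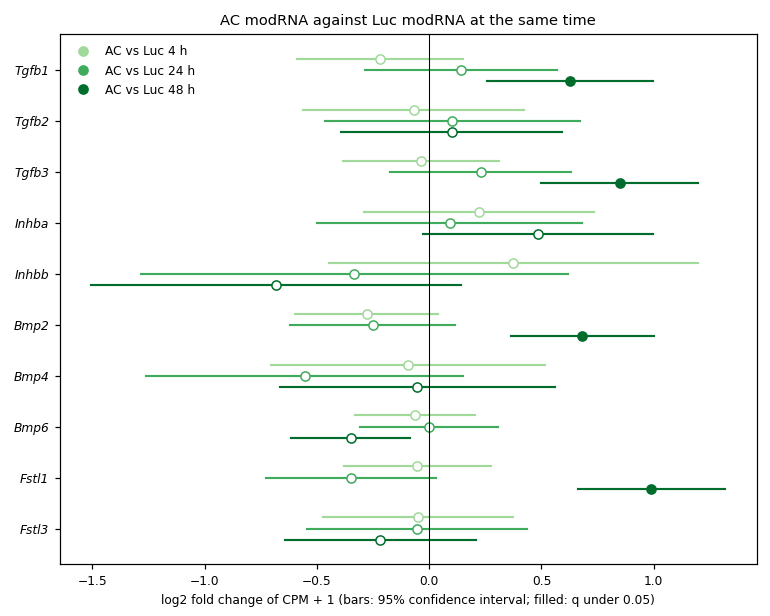
Log2 fold change of CPM + 1 of AC over Luc hearts (x axis) for each gene (y axis) at 4, 24 and 48 h. Bars are 95% confidence intervals and filled points passed q under 0.05; the only filled points are Tgfb1, Tgfb3, Bmp2 and Fstl1 at 48 h.

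Marker sums at 48 h are given beside these differences. Monocyte and macrophage markers summed to 199 to 277 CPM in Luc hearts and 411 to 596 CPM in AC hearts, without overlap. Cardiomyocyte markers summed to 27506 to 37986 and 20487 to 24061 CPM, also without overlap. Fibroblast markers (1312 to 1843 and 1782 to 2707 CPM) overlapped, and they include Col1a1 and Col1a2, which are also listed as TGF-beta targets. Atrial markers summed to 533 to 1169 CPM in Luc hearts and 1227 to 2966 CPM in AC hearts, without overlap. These sums do not tell atrial tissue from expression in the ventricle. No marker of the macrophage or fibroblast lists was at 0 in any of these libraries. Their part in the differences was not tested. Neutrophil markers overlapped between the groups.

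Of the TGF-beta target genes, 9 of 13 were higher in AC hearts at 48 h and none lower, with a median of 1.16. Of all genes tested, 15.3% were called, 12.1% higher and 3.27% lower. Fn1, fibronectin, had 34.3 to 118 CPM in Luc hearts and 208 to 422 CPM in AC hearts (2.15 ± 0.36, q = 0.000375). Tnc (2.05 ± 0.53), Col3a1 (1.96 ± 0.35) and Col1a1 (1.84 ± 0.33) were higher as well. Ltbp2, a latent TGF-beta binding protein family member, was higher by 1.77 ± 0.22, Itgb6 by 1.74 ± 0.43, the BMP binding protein gene Bmper by 1.04 ± 0.23 and Nrros by 1.02 ± 0.19, among 7 of 20 genes of latency and inhibition that were higher and 1 lower. Other ligands were higher in 2 of 5 (Gdf6, 1.24 ± 0.16, and Gdf11, 0.72 ± 0.18), receptors in 1 of 14 (Acvr1, 0.50 ± 0.16), Smads in 1 of 16 (Pmepa1, 0.48 ± 0.13) and BMP targets in 1 of 9 (Id3, 0.73 ± 0.21), with none lower. The plot of the pathway lists sets these beside the changes at 24 h.

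**Figure D5:**
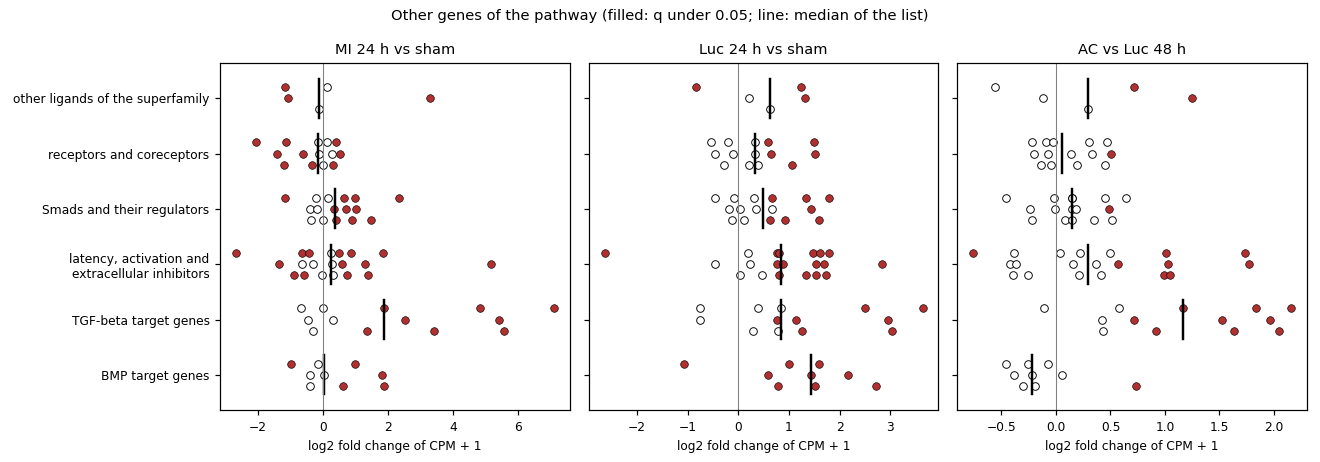
Log2 fold change of CPM + 1 (x axis) of the other genes of the pathway, 1 point per gene, by list (y axis), for 24 h post-MI against sham, Luc 24 h against sham and AC against Luc at 48 h. Filled points passed q under 0.05 and lines are list medians; TGF-beta targets had a median of 1.89 at 24 h post-MI and 1.16 in AC against Luc hearts, and BMP targets 1.43 in Luc hearts at 24 h. The x axes differ between panels.

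Whether the AC difference itself changed with time was tested with interaction terms. Between 48 and 4 h it differed for 3 members, where 3.35% of genes were called, 2.88% higher: Fstl1 (1.04 ± 0.22, q = 0.0127), Bmp2 (0.96 ± 0.22, q = 0.0165) and Tgfb3 (0.89 ± 0.24, q = 0.0405). Between 48 and 24 h it differed for 2, where 2.56% were called, 2.23% higher: Fstl1 (1.34 ± 0.24, q = 0.00584) and Bmp2 (0.93 ± 0.23, q = 0.0329). Between 24 and 4 h no member was called by limma and none had an unadjusted p under 0.05, whereas 379 of all genes did and 1 was called. Under median-ratio rescaling, the share of all calls that were higher moved from 86.0% to 61.2% between 48 and 4 h and from 87.0% to 57.2% between 48 and 24 h. The Tgfb3 call was lost without any of 11 single libraries (q of at most 0.101), and the Bmp2 call between 48 and 24 h without any of 7, among them AC 24 h heart C (0.75, q = 0.0720). Without Luc 48 h hearts 1 and 3, none of the 3 differences between 48 and 4 h was called (Fstl1 0.97, q = 0.0868; Bmp2 0.98, q = 0.0814; Tgfb3 0.87, q = 0.0902), and Fstl1 was called between 48 and 24 h (1.27, q = 0.0271).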

How the data were processed

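RNA-seq was made from poly(A) RNA of LV tissue. Per the paper's methods for the first table, the authors aligned reads to mm10 with STAR, counted them on UCSC RefSeq genes by expectation-maximization in Partek Flow and normalized them by TMM; the deposited values are CPM. For the second table the labels name mm10, and the aligner, counter and normalization are not given in the sources used here. Its deposited values, read as CPM, had a lowest value of 1 in every library, so 1 was subtracted. A single read of the first was worth at most 0.0479 CPM, judged by the lowest value in each library; the depth of the second is unknown. Whole reads could not be recovered, so no count test was run.

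Genes averaging 1 CPM or more (12487 and 12555) entered a limma-trend fit (limma 3.58.1, R 4.3.3) on log2(CPM + 1), with a single fit for each file over all groups in it, without covariates, after a test on simulated data. The study's own test, Partek's, was not used. Exon lengths and overlaps came from GENCODE M21. Python 3.11.15, pandas 2.3.3, numpy 2.4.6 and matplotlib 3.10.9 were used. The members and gene lists were chosen with earlier results of these data known. Named genes were the 10 members, up to 4 called genes of each list per comparison by size of change, markers, and nearest profiles. Genes given as not called beside them, and lower-ranked genes of a list, were named after their values were seen. Alternatives were other pseudocounts, filters, scalings, weights and trend settings, 2-group fits, a replicate block, and each library left out. One gene of a list is counted but not reported here by name.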

Additional observations from a re-analysis of the deposited data

Results flagged for a closer look

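The effect of AC modRNA differed between times by a test of the difference itself for 3 members. Fstl1 differed by 1.04 on the log2 scale between 48 and 4 h and by 1.34 between 48 and 24 h. For Bmp2 the values were 0.96 and 0.93, and for Tgfb3 0.89 between 48 and 4 h. At 48 h all 4 AC hearts were above all 4 Luc hearts in these 3 genes, whereas at 4 h the groups overlapped in all 10 members. At 24 h all 3 AC hearts were below all 3 Luc hearts in Fstl1 (log2 fold change -0.35, not called), which enters the difference of 1.34. The monocyte and macrophage markers stood apart between AC and Luc hearts at 48 h (411 to 596 against 199 to 277 CPM) and overlapped at 4 h (177 to 224 against 185 to 241 CPM), and their part was not tested. In 50 groups of 4 libraries (10 members in 5 groups), Dixon's criterion singled out 0 libraries.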

How the results depend on the processing

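No member that was called changed direction under any alternative: 1437 values of called members stayed called and 86 lost the call. These values include settings that cannot move the log2 fold change, only its q value. Such settings leave out a library of another group, or change only the trend or the filter. Counts of members called that moved by over 1.5 times were as follows. MI 4 h against sham gave 3 with array weights and 2 with only the 2 groups. Luc 4 h against sham gave 0 under a filter at 5 CPM, which removes Bmp2, or without subtracting 1, and 2 with only the 2 groups or without Luc 48 h hearts 1 and 3. Luc 48 h against sham gave 4 with only the 2 groups, and Luc 48 h against 24 h 3 under a filter at 5 CPM. The AC difference between 48 and 24 h gave 1 with a pseudocount of 0.1, a filter at 5 CPM, median-ratio rescaling, or without Luc 48 h hearts 1 and 3, and between 48 and 4 h 1 under a filter at 5 CPM and 0 without those hearts. The cause was not tested.

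Whether same-numbered libraries pair could not be decided. Not every pair's deviations correlated above 0.1, but with 2 to 4 libraries in a group this cannot exclude pairing. For AC against Luc at 48 h the correlations were 0.19, -0.21 and 0.20 for numbers 1, 2 and 4. With the replicate block and only the 2 groups, the count was 0 for Luc 4 h against sham, 4 for Luc 48 h against sham and 0 for AC against Luc at 48 h (there 4 without the block; with it Fstl1 0.94, q = 0.0643, Tgfb1 0.71, q = 0.0984, Bmp2 0.62, q = 0.153, and Tgfb3 0.67, q = 0.128), and not every library correlated best with its own number. No paired analysis was possible for MI 4 h against sham, Luc 24 h against sham and Luc hearts between times because they share fewer than 2 numbers.

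Leaving out each library in turn gave 1 to 1 members called for MI 4 h against sham, 7 to 9 for MI 24 h against sham, 7 to 8 for MI 24 h against 4 h, 0 to 1 for Luc 4 h, 4 to 8 for Luc 24 h and 5 to 8 for Luc 48 h against sham, 5 to 7 for Luc 24 h against 4 h, 4 to 6 for Luc 48 h against 24 h, 3 to 5 for AC against Luc at 48 h and 0 at 4 and 24 h, and 2 to 4 and 1 to 2 for the AC difference between 48 and 4 h and 48 and 24 h. The second table has 2 sham hearts, and 4 members were called at 24 h and 5 at 48 h without sham heart 1.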
